A study of Mus musculus with 12 samples.

Results

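The genes described here are those of sterol and fatty acid synthesis that answer to the sterol regulatory element-binding proteins (SREBPs). They were chosen by symbol from a list of 33 and kept where the deposited table held at least 10 reads over the 12 libraries, which left 32 of the 33 and of the 23446 genes in the table. The dropped gene, Hmgcs1, which encodes the enzyme that joins acetyl-CoA and acetoacetyl-CoA, was listed at 0 reads in all 12 libraries, so no level is given for it. The 32 genes fell into 5 that control SREBP activity, 5 of the mevalonate segment, 11 of the segment from squalene to cholesterol, 1 of sterol transport and 10 of fatty acid synthesis, elongation and desaturation. All 32 had enough reads to be tested.

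RNA came from C2C12, an established line of mouse myoblasts that proliferates in growth medium (GM) and forms myotubes in differentiation medium (DM). Cells in either medium were given acetoacetate (AA), a ketone body, or PBS as control, and both treatments lasted 12 h. This gave GM-PBS and GM-AA, and DM-PBS and DM-AA, as 4 groups of 3 libraries each. The labels give no dose or salt of acetoacetate and no time spent in DM, and they do not state whether libraries of a group are separate cultures, so p-values measure the spread between these libraries, which may be technical.

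SREBPs are made as membrane proteins of the endoplasmic reticulum, where Scap senses sterols and escorts them to the Golgi for cleavage, and Insig proteins hold the complex back when sterols are plentiful. The released fragment enters the nucleus and switches on its targets, SREBP-2 mainly those of cholesterol synthesis and SREBP-1 mainly those of fatty acid synthesis, with Insig1 among the targets itself. Many of these promoters pair a sterol regulatory element with a CCAAT box, the site of the factor NF-Y. Acetoacetate has a direct route into this chemistry, since Aacs activates it in the cytosol to acetoacetyl-CoA, a precursor of both sterols and fatty acids.

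Promoter sequences are printed for 6 members whose levels are described below. Insig1 and Tm7sf2 had the largest falls with AA, and Lss and Sc4mol differed in their AA response between the media. Cyp51 was higher with AA, and Fasn is the synthase of the fatty acid branch. Whether promoter sequence goes with the changes in level was not tested. Each line gives the 250 bases before the annotated start, 5′ to 3′ on the gene's strand, from RefSeq (GRCm38.p6), with CCAAT on either strand in capitals.
Insig1, chr5:28071162-28071411, plus strand: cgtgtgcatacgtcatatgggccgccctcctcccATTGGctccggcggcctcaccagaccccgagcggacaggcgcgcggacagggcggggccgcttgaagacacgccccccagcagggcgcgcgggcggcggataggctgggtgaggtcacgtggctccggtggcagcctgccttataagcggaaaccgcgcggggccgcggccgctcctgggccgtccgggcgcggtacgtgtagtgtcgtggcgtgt
Tm7sf2, chr19:6067851-6068100, minus strand: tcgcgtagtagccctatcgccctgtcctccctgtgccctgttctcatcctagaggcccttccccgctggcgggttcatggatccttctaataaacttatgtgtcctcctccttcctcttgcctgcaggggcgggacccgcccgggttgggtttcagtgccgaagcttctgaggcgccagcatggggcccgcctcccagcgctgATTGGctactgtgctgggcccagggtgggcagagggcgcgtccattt
Lss, chr10:76531355-76531604, plus strand: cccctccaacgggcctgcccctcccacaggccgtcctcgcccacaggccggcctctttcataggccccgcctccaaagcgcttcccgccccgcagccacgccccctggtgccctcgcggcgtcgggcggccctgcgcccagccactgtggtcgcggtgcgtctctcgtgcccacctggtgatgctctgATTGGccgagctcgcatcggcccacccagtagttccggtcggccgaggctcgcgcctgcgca
Sc4mol, chr8:64733579-64733828, minus strand: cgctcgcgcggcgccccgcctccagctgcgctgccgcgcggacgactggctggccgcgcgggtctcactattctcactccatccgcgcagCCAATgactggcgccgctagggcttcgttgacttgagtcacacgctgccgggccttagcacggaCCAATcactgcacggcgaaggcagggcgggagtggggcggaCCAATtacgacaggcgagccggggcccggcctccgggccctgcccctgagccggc
Cyp51, chr5:4104698-4104947, minus strand: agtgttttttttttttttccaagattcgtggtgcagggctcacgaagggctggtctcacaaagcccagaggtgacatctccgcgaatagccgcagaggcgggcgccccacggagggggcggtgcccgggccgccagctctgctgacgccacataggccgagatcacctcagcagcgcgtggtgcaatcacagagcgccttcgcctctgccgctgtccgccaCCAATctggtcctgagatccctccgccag
Fasn, chr11:120824548-120824797, minus strand: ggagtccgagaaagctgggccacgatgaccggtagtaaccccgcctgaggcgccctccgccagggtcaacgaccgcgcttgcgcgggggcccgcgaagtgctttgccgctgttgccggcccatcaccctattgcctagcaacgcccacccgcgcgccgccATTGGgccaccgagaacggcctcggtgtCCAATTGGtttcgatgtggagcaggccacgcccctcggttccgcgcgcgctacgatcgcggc

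These 6 windows differ in where their boxes lie. With the annotated start as position 0, the first base of the box was at -216 in Insig1, -47 in Tm7sf2, -62 in Lss and -29 in Cyp51. Sc4mol had boxes at -160, -96 and -55, and Fasn had them at -90, -62 and -59, of which the last 2 overlap on opposite strands. The table matched 25 of the 32 members, with 34 windows of 300 bases (250 before to 50 after the start). It had no entry for Fdps, Fdft1, Sqle, Stard4, Scd1, Scd2 and Fads1. CCAAT, on either strand, was in a window of 21 of the 25 members (84.0%), compared with 41.06% of all 27025 genes of the table and 43.24% of its 9151 genes that were tested here. A strict form of the sterol regulatory element, TCACNCCAC on either strand, was in 0 of the 34 windows and in a window of 1.436% of all genes of the table. No match says only that these letters are not in these windows.

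Libraries held 7959519 to 9893564 reads assigned to genes, of which the 32 members took 0.653% to 0.680% in the GM libraries, 1.02% to 1.07% in those of DM-PBS and 0.901% to 0.937% in those of DM-AA. All 6 myoblast markers (Myod1, Myf5, Des, Cdh15, Myog and Chrna1) were present in every group. Of 8 adipocyte markers, 5 stayed under 1 CPM (reads scaled to library size) in all libraries, among them Plin1 and Lep at 0. Fabp4, Pparg and Cebpa reached 1 CPM in at least 1 library. The hepatocyte markers Alb and Ttr were at 0. The summed adipocyte list ranged over 27.0 to 32.7 CPM in GM with PBS and 20.7 to 24.7 with AA, and over 32.3 to 40.8 CPM in DM with PBS and 20.1 to 22.3 with AA, so it was lower with AA in both media and overlapped between the PBS groups. Its 2 tested members were Cebpa and Pparg, and changes of single markers are given as log2 fold changes. Cebpa fell by 0.48 with AA in GM and by 0.85 in DM and was 0.72 higher in DM-PBS than in GM-PBS. Pparg fell by 0.53 with AA in DM, stood at -0.20 in GM (edgeR, adjusted p = 0.297) and fell by 1.09 from GM-PBS to DM-PBS. Fabp4, too low to be tested, was at 0.761 CPM in GM-PBS, 0.382 in GM-AA, 0.261 in DM-PBS and 0.324 in DM-AA (means). The 5 epithelial markers, nearly all of it Krt19, summed to 84.6 to 87.6 CPM in GM with PBS and 69.0 to 75.8 with AA, and to 27.4 to 31.0 CPM in DM with PBS and 29.4 to 30.6 with AA. The myoblast list summed to 2292 to 2356 CPM in GM with PBS and 2677 to 2761 with AA, and to 2614 to 2652 CPM in DM with PBS and 3066 to 3320 with AA, most of it from Des. Within it Myod1 fell by 0.34 with AA in GM, stood at 0.059 in DM (adjusted p = 0.425) and fell by 0.45 from GM-PBS to DM-PBS. Myog, a marker of differentiation, rose by 0.35 with AA in GM (edgeR, adjusted p = 0.0489), where the groups overlapped. In DM it rose by 0.94, and it was 2.58 higher in DM-PBS than in GM-PBS. The remaining markers of the list rose with AA in both media. In GM and DM, Myf5 rose by 0.64 and 0.27, Cdh15 by 0.39 and 0.41, Chrna1 by 0.36 and 0.37 and Des by 0.22 and 0.21. The part of these lists in the results was not tested. The libraries' deviations from the gene means correlated with GC content to different degrees, with Spearman's rho across genes of 0.127 to 0.150 in the libraries of DM-PBS, -0.148 to -0.0611 in those of DM-AA and -0.177 to -0.115 in those of GM-AA. In GM-PBS, rho was 0.211 in library 1, apart from 0.00528 and 0.0307 in libraries 2 and 3. Median GC content was 49.3% for the members and 49.7% for all tested genes. In bulk RNA, fewer cells making a transcript and less of it per cell cannot be told apart.

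Most of these genes were higher in DM than in GM, and in DM most were lower with AA. The members were chosen with earlier results of these data known. The shares of all tested genes therefore stand beside the counts as a description, not as a test. Below, a change passed the test where the Benjamini-Hochberg adjusted p of edgeR's quasi-likelihood test, over all 12230 tested genes, was under 0.05, and log2 fold changes are given ± SE with n = 3 libraries per group. Between media, in PBS, 27 of the 32 members were higher in DM and 2 lower (1 without DM-PBS 2 or GM-PBS 1), compared with 27.0% and 27.4% of all tested genes, and the members' median log2 fold change was 0.69 compared with 0.0071 over all tested genes. With AA in DM, 24 members fell and 1 rose, compared with 13.8% and 12.6% of all tested genes, with a median of -0.24 (all tested genes, 0.0021). With AA in GM, 10 fell and 3 rose, compared with 11.0% and 9.76%, with a median of -0.09 (all tested genes, -0.0034). The count of 10 varied with the libraries kept, being 4 without GM-PBS 1 and 6 without GM-AA 3. Calls over all tested genes also became fewer, with 1340 that fell in the full fit and 952 to 1329 without 1 library. The 1 member that rose in DM, Cyp51, did not pass on leaving out DM-AA 2, DM-AA 3 or DM-PBS 3 (then adjusted p = 0.0687 to 0.0915). After removal of the GC and length trend of each library, the medians were 0.69 between media, -0.24 with AA in DM and -0.088 with AA in GM.

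**Figure D1:**
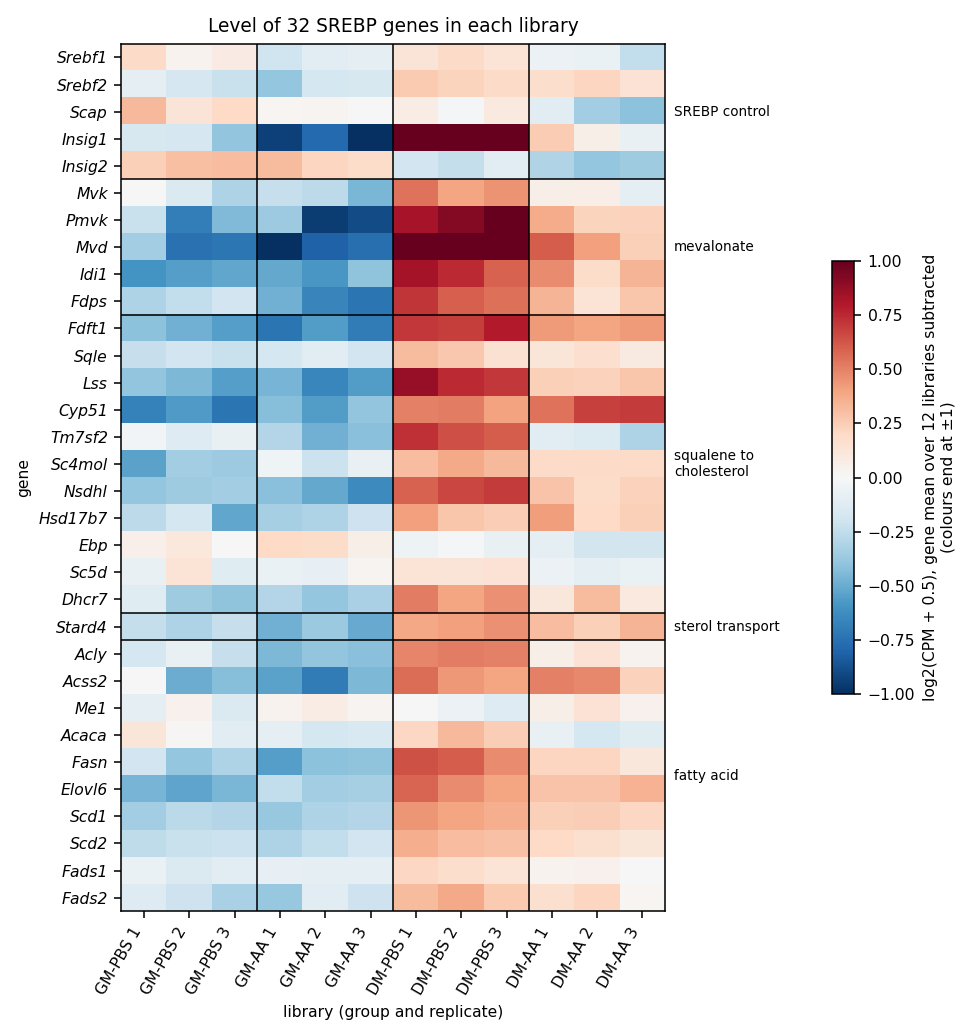
Level of the 32 SREBP genes (rows, grouped by role) in the 12 libraries (columns), as log2(CPM + 0.5) with each gene's mean over the libraries subtracted, colours ending at ±1. The DM-PBS columns are red for most rows, DM-AA columns are paler, and GM columns are blue, with Srebf1, Scap, Insig2, Cyp51, Ebp and Me1 among the exceptions.

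In the heatmap of levels, most sterol and fatty acid rows deepen in colour from GM to DM-PBS and pale in DM-AA. Of these rows Cyp51 was highest in DM-AA, Ebp was at 93.0 CPM in GM-PBS and 86.8 in DM-PBS, and Me1 was at 49.4 CPM in DM-PBS and 54.6 in DM-AA (means). Per transcript length, levels spanned a wide range. In GM-PBS, the stearoyl-CoA desaturase Scd2 was highest at 282 ± 3.75 RPKM (mean ± SD, n = 3), followed by Scd1 at 98.7 ± 2.81 and Srebf2 at 75.1 ± 3.62. The median over the members was 20.99 RPKM. The isomerase Idi1 at 3.30 ± 0.092 RPKM and the acetyl-CoA synthetase Acss2 at 1.73 ± 0.360 RPKM were among the lowest.

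Among the 5 genes that control SREBP activity, Insig1 moved most. In GM it was at 81.3, 80.7 and 69.0 CPM with PBS and 47.4, 52.7 and 45.1 with AA. In DM it was at 189.6, 193 and 188 CPM with PBS and 108, 94.8 and 86.2 with AA. Neither pair of groups overlapped, and the DM-AA libraries all lay above the GM-PBS libraries. Insig1 fell by 0.67 ± 0.075 with AA in GM (adjusted p = 3.81e-08), and in DM it fell by 0.98 ± 0.063 (adjusted p = 7.89e-14), and it was 1.30 ± 0.064 higher in DM-PBS than in GM-PBS (edgeR, adjusted p = 4.03e-18). Both AA changes passed under every alternative run. The other retention gene, Insig2, went the opposite way between media.

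Insig2 was at 153, 159 and 159.9 CPM in the GM-PBS libraries, 160.3, 150.0 and 147 in GM-AA, 113, 109 and 120.1 in DM-PBS and 105, 98.6 and 101 in DM-AA. It fell by 0.46 ± 0.050 from GM-PBS to DM-PBS (adjusted p = 1.48e-09) and by 0.17 ± 0.052 with AA in DM (adjusted p = 0.0142), where groups did not overlap. That last call was lost without DM-AA 2 or DM-PBS 3 (then adjusted p = 0.071 to 0.0953). In GM, where the groups overlapped, its AA difference was -0.04 ± 0.049.

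The precursors themselves behaved differently from each other. Srebf1, which encodes SREBP-1, was at 171, 153 and 158 CPM in the GM-PBS libraries, 131, 138 and 140.4 in GM-AA, 164, 171 and 165 in DM-PBS and 143, 143 and 126 in DM-AA. It fell by 0.24 ± 0.054 with AA in GM (adjusted p = 0.00148), and in DM it fell by 0.28 ± 0.054 (adjusted p = 0.000166), with no overlap in either medium, and between media it differed by 0.05 ± 0.053 (adjusted p = 0.422). Srebf2, which encodes SREBP-2, was at 569, 537 and 517 CPM in the GM-PBS libraries, 461, 535 and 541 in GM-AA, 724, 707 and 691 in DM-PBS and 683, 701 and 667 in DM-AA. It was 0.39 ± 0.051 higher in DM-PBS (adjusted p = 8.62e-08), and its AA groups overlapped in both media, at -0.08 ± 0.052 in GM and -0.05 ± 0.051 in DM. Counts per gene do not separate the isoforms of SREBP-1.

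Scap, the sterol-sensing escort, was at 107, 93.1 and 98.0 CPM in the GM-PBS libraries, 86.1, 86.9 and 85.5 in GM-AA, 89.8, 84.3 and 91.2 in DM-PBS and 78.8, 66.9 and 63.8 in DM-AA. It fell by 0.34 ± 0.065 with AA in DM (adjusted p = 0.000126) and by 0.20 ± 0.062 in GM (adjusted p = 0.0165), without overlap. The GM call was lost without GM-PBS 1 (adjusted p = 0.147), and after removal of the GC and length trend (adjusted p = 0.127). Its lower level in DM-PBS, -0.17 ± 0.062, did not pass without DM-PBS 2 or GM-PBS 1 (then adjusted p = 0.11 to 0.172). Exons of 5830462I19Rik on the opposite strand cover 13.2% of the Scap exons, and the strand of the reads is not given.

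The 5 tested enzymes of the mevalonate segment, which build isoprenoid units and join them to farnesyl pyrophosphate, were all higher in DM-PBS than in GM-PBS and all fell with AA in DM. In GM, 1 of the 5 fell, compared with 11.0% of all tested genes (13.8% in DM). Between media, 27.0% of all tested genes were higher in DM-PBS. Mvd, the decarboxylase, had the largest difference between media of all members. It was at 20.5, 15.4 and 15.6 CPM in the GM-PBS libraries, 11.7, 14.8 and 15.3 in GM-AA, 59.3, 54.9 and 54.0 in DM-PBS and 40.1, 35.0 and 31.0 in DM-AA. It was 1.70 ± 0.099 higher in DM-PBS (adjusted p = 3.05e-16) and fell by 0.67 ± 0.088 with AA in DM (adjusted p = 3.55e-07). In GM its difference of -0.31 ± 0.13 did not pass (adjusted p = 0.079; 0.0375 with no low-count filter), although the groups did not overlap.

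The kinases before it followed. Pmvk, phosphomevalonate kinase, was at 25.9, 18.6 and 22.3 CPM in the GM-PBS libraries, 23.5, 15.5 and 16.1 in GM-AA, 54.1, 57.7 and 61.5 in DM-PBS and 39.4, 35.5 and 35.8 in DM-AA. It fell by 0.64 ± 0.094 with AA in DM (adjusted p = 2.32e-06), with all DM-AA libraries between the 2 sets of PBS libraries. In GM it stood at -0.28 ± 0.12 (adjusted p = 0.108) and passed without GM-AA 1 or GM-PBS 2 (then adjusted p = 0.00317 and 0.0325) and with no low-count filter (adjusted p = 0.0375). Mvk, mevalonate kinase, was at 27.1, 24.6 and 21.9 CPM in the GM-PBS libraries, 23.1, 22.7 and 19.7 in GM-AA, 39.8, 35.9 and 37.3 in DM-PBS and 28.4, 28.5 and 25.4 in DM-AA. It fell by 0.46 ± 0.085 with AA in DM (adjusted p = 8.19e-05), and the DM-AA range reached into that of GM-PBS.

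Idi1 and Fdps act downstream of these kinases. Idi1, the isomerase, was at 14.5, 14.9 and 15.3 CPM in the GM-PBS libraries, 15.4, 14.6 and 16.6 in GM-AA, 39.8, 37.4 and 33.5 in DM-PBS and 30.9, 25.2 and 28.1 in DM-AA. It fell by 0.40 ± 0.085 with AA in DM (adjusted p = 0.000526), while in GM the groups overlapped at 0.06 ± 0.11. Fdps, farnesyl pyrophosphate synthase, was at 57.7, 60.2 and 62.3 CPM in the GM-PBS libraries, 51.1, 45.1 and 42.9 in GM-AA, 117, 108 and 105 in DM-PBS and 90.5, 78.4 and 86.5 in DM-AA. It fell by 0.37 ± 0.071 in GM (adjusted p = 0.00022), and in DM it fell by 0.37 ± 0.061 (adjusted p = 1.22e-05), so that the effects in the media differed by -0.0027 ± 0.095, and both calls held under every alternative run. Idi1 shares 21.3% and Fdps 11.7% of its 50-base exon words with other genes, and Gm43738 covers 26.7% of the Fdps exons on the same strand, so their counts are uncertain.

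From squalene to cholesterol, 10 of 11 enzymes were higher in DM-PBS, compared with 27.0% of all tested genes. With AA in DM, 7 of the 11 fell and 1 rose. In GM, 3 of the 11 fell and 2 rose, compared with 11.0% and 9.76% of all tested genes (13.8% and 12.6% in DM). Tm7sf2, a sterol C14-reductase, had the largest fall with AA of the enzymes among the members. It was at 14.6, 13.5 and 14.1 CPM in the GM-PBS libraries, 12.0, 10.5 and 11.0 in GM-AA, 24.9, 23.4 and 22.9 in DM-PBS and 13.6, 13.5 and 11.8 in DM-AA. It fell by 0.87 ± 0.10 with AA in DM (adjusted p = 2.87e-08), where its level with AA overlapped that of GM-PBS. In GM it fell by 0.33 ± 0.11 (adjusted p = 0.0337), a call lost on leaving out GM-AA 2, GM-AA 3, GM-PBS 1 or GM-PBS 3 (then adjusted p = 0.0761 to 0.119), with DESeq2 (0.109) and with only the GM groups fitted (0.0514). Vps51 covers 12.1% of the Tm7sf2 exons on the same strand, and it fell by 0.26 in GM and by 0.30 in DM (adjusted p = 0.024 and 0.0027).

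Lss, the cyclase that closes the sterol rings, responded in DM. It was at 35.8, 34.4 and 32.1 CPM in the GM-PBS libraries, 34.0, 29.9 and 31.9 in GM-AA, 86.7, 79.4 and 77.4 in DM-PBS and 55.9, 55.5 and 57.2 in DM-AA. It fell by 0.53 ± 0.062 in DM (adjusted p = 3.26e-08), and in GM the groups overlapped at -0.10 ± 0.077. Nsdhl, a decarboxylating dehydrogenase acting at C4, was at 90.2, 92.2 and 92.9 CPM in the GM-PBS libraries, 88.4, 82.6 and 75.7 in GM-AA, 178, 188 and 192 in DM-PBS and 144, 134 and 139 in DM-AA. It fell by 0.42 ± 0.050 in DM (adjusted p = 7.38e-08). Its fall of 0.16 ± 0.057 in GM (adjusted p = 0.0468) was lost without any 1 of 10 libraries, all but DM-AA 1 and GM-AA 1 (adjusted p = 0.0509 to 0.266), and with DESeq2 (0.0916).

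Fdft1, squalene synthase, had its groups apart in both media. It was at 106, 101 and 95.9 CPM in the GM-PBS libraries, 84.6, 95.3 and 86.6 in GM-AA, 229.8, 228 and 245 in DM-PBS and 189, 186 and 189.8 in DM-AA. It fell by 0.32 ± 0.049 in DM (adjusted p = 5.74e-06) and by 0.18 ± 0.056 in GM (adjusted p = 0.0169), the latter lost on leaving out GM-AA 1, GM-AA 3 or GM-PBS 1 (then adjusted p = 0.0683 to 0.115). Exons of Ctsb, a lysosomal protease gene, cover 18.3% of Fdft1 on the opposite strand; Ctsb rose by 0.19 with AA in GM and fell by 0.79 from GM-PBS to DM-PBS.

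The C4-methyl oxidase Sc4mol and the C14-demethylase Cyp51 were the sterol enzymes that rose in GM. Sc4mol was at 92.3, 105 and 104 CPM in the GM-PBS libraries, 131, 115 and 127 in GM-AA, 166, 175 and 168 in DM-PBS and 153, 153 and 154 in DM-AA. It rose by 0.31 ± 0.055 in GM (adjusted p = 9.39e-05), under every alternative run, and fell by 0.15 ± 0.052 in DM (adjusted p = 0.0308). The DM fall was lost on leaving out DM-AA 1, DM-AA 2, DM-AA 3, DM-PBS 2 or DM-PBS 3 (then adjusted p = 0.0539 to 0.128) and with DESeq2 (0.0732). Cyp51, named here after its values were seen, was at 167, 180.1 and 160.4 CPM in the GM-PBS libraries, 199, 181 and 203 in GM-AA, 379, 382 and 353 in DM-PBS and 389, 428 and 433 in DM-AA. It rose by 0.20 ± 0.056 in GM and by 0.17 ± 0.052 in DM (adjusted p = 0.00919 and 0.0148), and the GM call was lost without GM-AA 3 or GM-PBS 3 (then adjusted p = 0.0617 and 0.0661).

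Of the remaining sterol enzymes, Dhcr7, the last reductase of the pathway, and Sc5d, the C5-desaturase, fell in DM by 0.28 ± 0.068 and 0.21 ± 0.061 (adjusted p = 0.00194 and 0.00939). Sqle, the epoxidase, at -0.12 ± 0.047 in DM (adjusted p = 0.0569; 0.0128 without DM-PBS 3 and 0.0346 after removal of the GC and length trend), Hsd17b7 and Ebp passed in neither medium. Ebp, the sterol isomerase, was the only sterol enzyme that did not differ past the test between media (-0.10 ± 0.054, adjusted p = 0.117); the difference of Sc5d, 0.15 ± 0.060, did not pass on leaving out DM-PBS 1, DM-PBS 2, DM-PBS 3, GM-PBS 1 or GM-PBS 3 (then adjusted p = 0.0627 to 0.218) or with DESeq2 (0.0866). Stard4, a cholesterol carrier, was 0.68 ± 0.056 higher in DM-PBS. With AA it fell by 0.20 ± 0.060 in GM (adjusted p = 0.0184), lost on leaving out GM-AA 1, GM-AA 3, GM-PBS 1 or GM-PBS 3 (then adjusted p = 0.0617 to 0.0786) and with DESeq2 (0.0556). In DM it stood at -0.12 ± 0.053 (adjusted p = 0.092) and passed at -0.18 once the GC and length trend was removed (adjusted p = 0.00826).

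**Figure D2:**
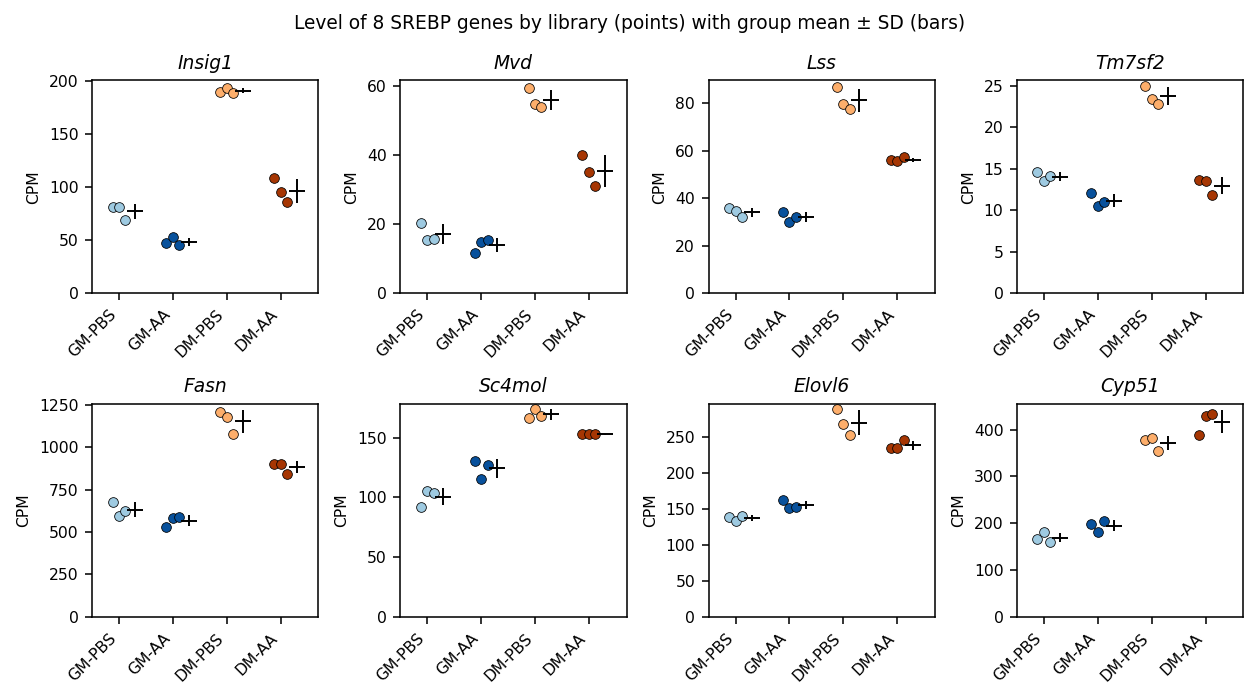
CPM of 8 SREBP genes in each library (points) with group mean ± SD over 3 libraries (bars), on axes that start at 0. Insig1, Mvd, Lss, Tm7sf2 and Fasn are lower in DM-AA than in DM-PBS with no overlap, Sc4mol and Elovl6 are higher with AA in GM and lower in DM, and Cyp51 is higher with AA in both.

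The plot of levels by library sets these patterns side by side, with the spread within a group small beside the distance between DM-PBS and DM-AA for Insig1, Lss and Tm7sf2. For Cyp51 the AA and PBS libraries lie close together, down to 181 CPM in 1 GM-AA library beside 180.1 in 1 GM-PBS library.

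In the fatty acid branch, 9 of 10 genes were higher in DM-PBS and 8 fell with AA in DM, compared with 27.0% and 13.8% of all tested genes. Fasn, fatty acid synthase, was at 679, 592 and 625 CPM in the GM-PBS libraries, 531, 584 and 586 in GM-AA, 1206, 1179 and 1076 in DM-PBS and 902, 901 and 840.0 in DM-AA. It was 0.87 ± 0.053 higher in DM-PBS (adjusted p = 9.69e-16) and fell by 0.39 ± 0.052 with AA in DM (adjusted p = 5.11e-07). Its fall of 0.16 ± 0.053 in GM (adjusted p = 0.0315) was lost on leaving out GM-AA 1, GM-PBS 1 or GM-PBS 3 (then adjusted p = 0.0637 to 0.248), and after removal of the GC and length trend (adjusted p = 0.103). Acly and Acaca, which supply its substrates, also fell in DM.

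Acly, which releases acetyl-CoA from citrate, was at 208, 223 and 200.2 CPM in the GM-PBS libraries, 173, 179 and 176 in GM-AA, 331, 336 and 335 in DM-PBS and 245, 261 and 242 in DM-AA. It fell by 0.26 ± 0.049 in GM (adjusted p = 0.000188), and in DM it fell by 0.42 ± 0.047 (adjusted p = 1.5e-08), and both calls held under every alternative run. Acaca, the carboxylase that makes malonyl-CoA, was at 86.8, 80.4 and 74.0 CPM in the GM-PBS libraries, 74.7, 70.8 and 71.7 in GM-AA, 92.3, 99.9 and 94.6 in DM-PBS and 75.6, 70.5 and 73.4 in DM-AA. It fell by 0.38 ± 0.058 in DM (adjusted p = 4.49e-06), to the range of GM-AA. In GM its groups overlapped at -0.15 ± 0.059 (adjusted p = 0.0645), and it passed without GM-PBS 3 (adjusted p = 0.0223). Gm5182 shares 52.6% of the 50-base exon words of Acaca.

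Elovl6, the elongase of saturated chains, went in opposite directions with AA in the media. It was at 139, 133 and 140.4 CPM in the GM-PBS libraries, 162, 151 and 153 in GM-AA, 289, 268 and 254 in DM-PBS and 235, 235 and 245 in DM-AA. It rose by 0.18 ± 0.053 in GM (adjusted p = 0.015) and fell by 0.18 ± 0.049 in DM (adjusted p = 0.00523), with no overlap in either. The GM call was lost without GM-AA 1 or GM-PBS 2 (then adjusted p = 0.0594 to 0.0786) and after removal of the GC and length trend (0.13, adjusted p = 0.0568), and the DM call without DM-PBS 1 (adjusted p = 0.0829).

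The desaturases Scd1, Scd2, Fads1 and Fads2 fell in DM by 0.17 ± 0.043, 0.16 ± 0.043, 0.15 ± 0.044 and 0.19 ± 0.064, and none of the 4 passed in GM, with differences from -0.02 to 0.01. The DM calls of Fads1 and Fads2, which make polyunsaturated fatty acids, were lost without DM-AA 3 or DM-PBS 1, and that of Fads2 without DM-PBS 2 as well (adjusted p = 0.0594 to 0.199). That of Fads2 was also lost with DESeq2 (adjusted p = 0.0847) and after removal of the GC and length trend (-0.13, adjusted p = 0.132). Those of Scd1 and Scd2 held under every alternative run. Acss2 and the malic enzyme Me1, sources of acetyl-CoA and NADPH, passed in neither medium. Me1 differed by 0.01 ± 0.066 between media (adjusted p = 0.924) and shares 26.5% of its exon words with other genes.

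**Figure D3:**
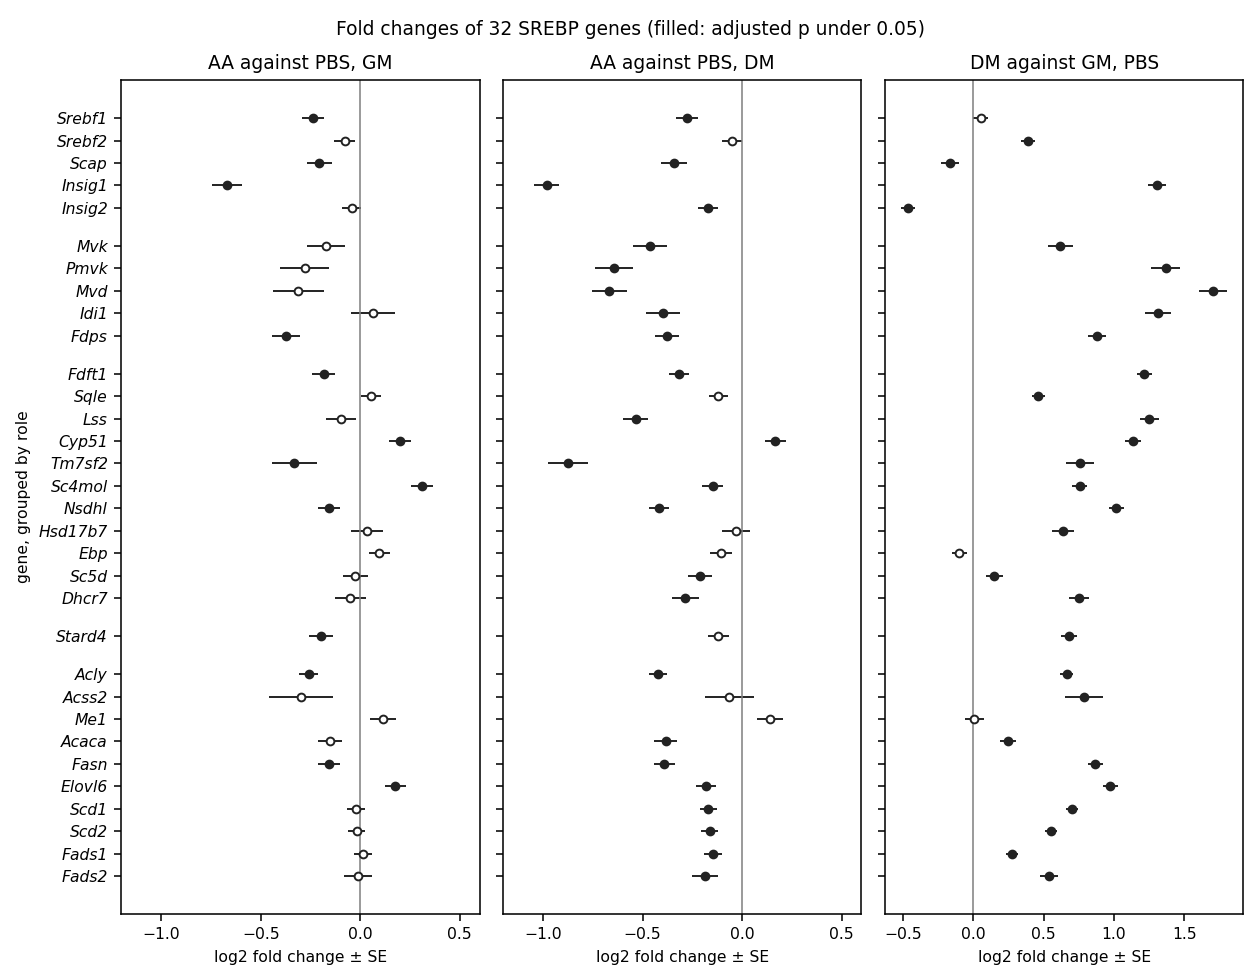
Log2 fold change ± SE of each of the 32 SREBP genes for AA against PBS in each medium and for DM against GM in PBS, with filled points where the adjusted p is under 0.05. In GM the points scatter around 0 with Insig1 lowest, in DM most lie to the left of 0, and between media most lie to the right, up to 1.70 for Mvd.

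As the plot of fold changes shows, 9 of the 10 members that fell in GM also fell in DM: Insig1, Srebf1, Scap, Fdps, Fdft1, Tm7sf2, Nsdhl, Acly and Fasn. They are 9 of the 24 that fell in DM. As 24 of all 32 members (75.0%) fell there, most of any 10 members would be among them, and the overlap was not tested. The GM calls of Scap, Fdft1, Tm7sf2, Nsdhl and Fasn were each lost under at least 1 alternative. The 2 AA comparisons share no library, but each shares its PBS libraries with the comparison of media, so the right panel is no independent view of the others. A total of 6 members passed in neither AA comparison: Srebf2, Sqle, Hsd17b7, Ebp, Acss2 and Me1. Of all tested genes, 11.0% fell and 9.76% rose in GM, and 13.8% fell and 12.6% rose in DM. The share of all tested genes that passed in neither was not counted.

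The difference between the AA effects was itself tested, as the effect in DM minus that in GM. Of the 32 members, 6 were lower and 0 higher, compared with 2.67% and 2.58% of all tested genes, and the effect was more negative in DM for 28 of the 32 (median -0.17; all tested genes, -0.0011). With edgeR, 0 members were higher even at an unadjusted p under 0.05, and with DESeq2 0 were. Of the 6 that were lower, 5 are sterol enzymes: Tm7sf2 at -0.54 ± 0.15 (adjusted p = 0.0289), Idi1 at -0.46 ± 0.14 (adjusted p = 0.0463), Sc4mol at -0.46 ± 0.076 (adjusted p = 0.000179), Lss at -0.44 ± 0.099 (adjusted p = 0.00478) and Nsdhl at -0.26 ± 0.076 (adjusted p = 0.0364). The remaining one is Elovl6 at -0.36 ± 0.072 (adjusted p = 0.00148). Sc4mol, Lss and Elovl6 passed under every alternative run. The count was 3 on leaving out DM-AA 3, GM-PBS 2 or GM-PBS 3, and 3 with DESeq2. Tm7sf2 was lost on leaving out DM-AA 3, DM-PBS 1, GM-AA 1, GM-PBS 2 or GM-PBS 3 (then adjusted p = 0.0551 to 0.0946). Idi1 was lost without any 1 of 9 libraries, all but DM-AA 1, DM-PBS 3 and GM-AA 2 (adjusted p = 0.0669 to 0.133), and Nsdhl without any 1 of 9, all but DM-AA 1, DM-PBS 1 and GM-AA 3 (adjusted p = 0.0601 to 0.126). Insig1, at -0.31 ± 0.099 (adjusted p = 0.0604), passed on leaving out DM-AA 1, GM-AA 3 or GM-PBS 1 (then adjusted p = 0.00842 to 0.0461) and with no low-count filter (0.00969), and Fasn, at -0.23 ± 0.074 (adjusted p = 0.0634), passed on leaving out DM-PBS 3, GM-AA 1 or GM-PBS 1 (then adjusted p = 0.0143 to 0.0198), with no low-count filter (0.0124) and after removal of the GC and length trend (0.0075).

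The sterol and fatty acid branches were set against each other as the mean log2 CPM of 16 sterol enzymes minus that of 10 fatty acid genes, each centred on its mean over the 12 libraries. The sterol mean was -0.33 ± 0.048 in GM-PBS, -0.41 ± 0.039 in GM-AA, 0.54 ± 0.033 in DM-PBS and 0.20 ± 0.041 in DM-AA (mean ± SD, n = 3). The fatty acid mean was -0.22 ± 0.053, -0.28 ± 0.023, 0.34 ± 0.045 and 0.15 ± 0.042 in the same order. In both branches the GM-PBS and GM-AA libraries overlapped, DM-AA lay above them and DM-PBS above DM-AA, over a wider span for sterol. The difference, sterol minus fatty acid, was -0.11 ± 0.015 in GM-PBS, -0.13 ± 0.059 in GM-AA, 0.19 ± 0.021 in DM-PBS and 0.051 ± 0.036 in DM-AA. Between media it changed by 0.31 and with AA in DM by -0.14, both beyond the pooled SD of 0.037 between libraries of a group, with no overlap between the groups; with medians over genes in place of means, the change with AA in DM was -0.090. With AA in GM it changed by -0.018, within that SD, but by -0.057 with Insig1 and Stard4 counted as sterol genes and by -0.052 without GM-AA 1, both beyond it. These are descriptions of genes chosen together, and no p is attached.

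**Figure D4:**
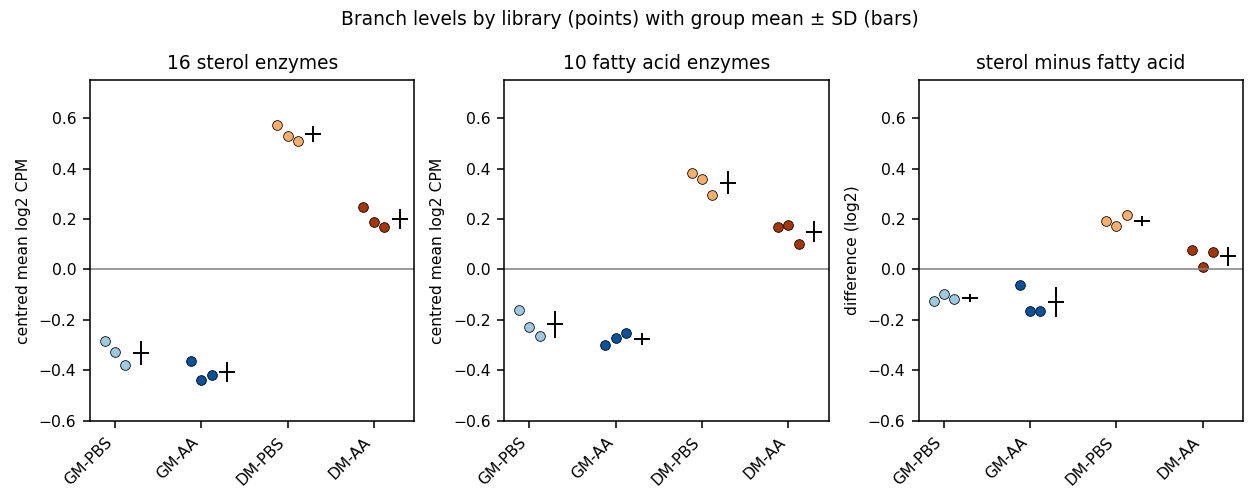
Mean log2 CPM of the 16 sterol enzymes and of the 10 fatty acid genes, centred over the 12 libraries, and their difference, in each library (points) with group mean ± SD (bars). In the right panel DM-PBS lies highest at 0.19, DM-AA next at 0.051, and both GM groups lie below 0.

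By counts, the branches were alike in DM. With AA there, 12 of 16 sterol enzymes and 8 of 10 fatty acid genes fell, whereas the medians were -0.35 and -0.18. Between media, 15 of 16 and 9 of 10 were higher, with medians of 0.82 and 0.61. In GM, 4 of 16 fell and 2 rose among sterol enzymes, and 2 of 10 fell and 1 rose in the fatty acid branch, with medians of -0.07 and -0.02. Of all tested genes, 11.0% fell and 9.76% rose in GM, so the risers of the branches (12.5% and 10.0%) were near that share. With AA in DM, 13.8% of all tested genes fell, and between media 27.0% were higher. In every panel of the plot of branch levels, all DM-PBS libraries lie above all DM-AA libraries, and these above all GM libraries. The GM-PBS and GM-AA libraries overlap in every panel.

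Other genes of the pathways were followed from lists chosen alongside the members, with earlier results of these data known. Of 8 further genes of sterol and isoprenoid synthesis, 2 fell and 1 rose with AA in GM, and 3 fell and 1 rose in DM (of all tested genes, 11.0% fell and 9.76% rose in GM, and 13.8% and 12.6% in DM), with medians of -0.082 and 0.0088. Aacs, the enzyme that activates acetoacetate, was at 79.9, 70.8 and 76.3 CPM in the GM-PBS libraries, 65.8, 66.7 and 72.5 in GM-AA, 121, 115 and 119 in DM-PBS and 84.7, 90.0 and 89.6 in DM-AA. It fell by 0.43 ± 0.054 in DM (adjusted p = 1.83e-07), was 0.65 ± 0.055 higher in DM-PBS than in GM-PBS, and in GM stood at -0.15 ± 0.059 (adjusted p = 0.0693), passing without GM-AA 3 or GM-PBS 2 (then adjusted p = 0.0363 and 0.0317). Acat2, which condenses acetyl-CoA to acetoacetyl-CoA, fell by 0.52 ± 0.051 in DM (adjusted p = 8.22e-10). Pdss1, of ubiquinone side chain synthesis, rose by 0.67 ± 0.19 in GM, lost without GM-PBS 1 or GM-PBS 3 (then adjusted p = 0.0518 and 0.0543).

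Among 7 genes that cleave or degrade SREBP-pathway proteins, 1 fell and 1 rose in GM and 2 fell in DM, where 0 rose with edgeR or DESeq2 (1, Fbxw7, at an unadjusted p under 0.05). The medians were 0.050 in GM and 0.076 in DM, and 1 of 7 each way in GM is near the shares of all tested genes given above (11.0% and 9.76%). In DM, 13.8% of all tested genes fell and 12.6% rose. Mbtps1, the site-1 protease, fell by 0.19 ± 0.047 in GM and by 0.15 ± 0.046 in DM, the latter lost without DM-PBS 1 (adjusted p = 0.054). Mbtps2, the site-2 protease, rose by 0.18 ± 0.062 in GM (adjusted p = 0.0337), lost on leaving out GM-AA 1, GM-AA 2, GM-PBS 2 or GM-PBS 3 (then adjusted p = 0.0598 to 0.123), with no low-count filter (0.0525), with DESeq2 (0.107) and after removal of the GC and length trend (0.10, adjusted p = 0.259). The ubiquitin ligase Rnf145 stood at the threshold in DM (-0.11 ± 0.043, adjusted p = 0.0499), and its call was lost without any 1 of 10 libraries, all but GM-AA 1 and GM-PBS 1.

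Of 10 genes of sterol uptake, storage and efflux, 2 fell in GM and 4 in DM, and 0 rose with edgeR or DESeq2 (at an unadjusted p under 0.05, 1 in GM, Npc1, and 0 in DM), with medians of -0.037 and -0.17. Of all tested genes, 11.0% fell and 9.76% rose in GM, and 13.8% and 12.6% in DM. Abca1, the cholesterol exporter induced by oxysterols, was at 2.96, 4.90 and 3.85 CPM in the GM-PBS libraries, 2.70, 1.63 and 1.30 in GM-AA, 7.13, 7.28 and 9.67 in DM-PBS and 2.21, 1.71 and 1.08 in DM-AA. It fell by 2.25 ± 0.25 in DM (adjusted p = 9.97e-09), to below its GM-PBS level, and by 1.04 ± 0.28 in GM (adjusted p = 0.00677), the GM call being lost without GM-AA 3 or GM-PBS 2 (then adjusted p = 0.0526 and 0.0555). Abcg1, the other exporter of the list, passed with AA in neither medium (-0.041 ± 0.27 in GM and -0.30 ± 0.16 in DM). Nr1h2, the oxysterol receptor LXR-beta, fell by 0.34 ± 0.067 in GM, and Mylip, the ligase that degrades the LDL receptor, fell by 0.26 ± 0.077 in DM, lost without DM-AA 1 or DM-AA 3 (then adjusted p = 0.0516 and 0.0503).

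Of 15 further fatty acid genes, 13 were tested, of which 4 fell and 1 rose in GM and 4 fell in DM, where 0 rose with edgeR, also at an unadjusted p under 0.05, or DESeq2. Their medians were 0.060 and -0.031, and 1 riser of 13 in GM is near the 9.76% of all tested genes. Of all tested genes, 11.0% fell in GM, and 13.8% fell and 12.6% rose in DM. The mitochondrial citrate carrier Slc25a1 fell by 0.48 ± 0.050 in DM and by 0.18 ± 0.050 in GM, the GM call being lost once the GC and length trend was removed (adjusted p = 0.139). The phosphatidate phosphatase Lpin1 fell by 0.69 ± 0.083 in DM and by 0.47 ± 0.10 in GM. Acsl3, an acyl-CoA synthetase, rose by 0.32 ± 0.051 in GM (adjusted p = 1.85e-05), and Tecr, a reductase of chain elongation, fell by 0.28 ± 0.056 there. Across the 4 lists, leaving out 1 library in turn moved the number that fell in GM between 1 and 3 for sterol and isoprenoid synthesis and between 1 and 2 for uptake, storage and efflux. In DM it moved between 2 and 4 for that list and for the fatty acid list, and between 0 and 2 for SREBP processing.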

How the data were processed

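For 23446 genes in 12 libraries the authors deposited counts of reads, not normalized, and RPKM, per the file headers. The submitters' processing notes name BWA 0.5.9-r16 and the mm9 build. How reads were assigned to genes, with which annotation and strand, is not given in the sources used here. RPKM recomputed from counts and gene lengths deviated by at most 0.0005% from the deposited RPKM. Every column matched a sample (0 unmatched). The members and all lists were chosen with earlier results of these data known.

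Counts were filtered with edgeR's filterByExpr by group (12230 genes, at least 99.9% of reads), scaled by TMM and fitted with 4 group means over 12 libraries by edgeR's quasi-likelihood method (edgeR 4.0.16, R 4.3.3; two-sided, 8 residual degrees of freedom). The common biological coefficient of variation was 4.08%. Benjamini-Hochberg adjustment ran over all tested genes, with a threshold of 0.05. SE is the absolute log2 fold change over the square root of F. CPM used TMM library sizes. Branch levels are means of log2 CPM (prior count 2). Libraries of a group differed by more than counting noise (chi-square per degree of freedom 1.45 to 2.90). The fit was also run on simulated counts in which 200 genes were changed, in GM-AA only. Fewer genes were changed there than were called in these data, and no GC trend was simulated. That run therefore does not show how the fit behaves under such broad changes or trends.

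Values in every library are given for members past the threshold with AA and a log2 fold change of at least 0.3 in size, for those past it in the difference of effects, and for the 5 control genes. Of the other lists, up to 2 genes per list and AA comparison with the smallest p are named, and Aacs; one gene that this rule names is not reported here. Alternatives were DESeq2 size factors, no low-count filter, the DESeq2 Wald test (1.42.0), the replicate number as a block, only the groups compared, RPKM library sizes, GC and length trends removed, and each library left out in turn. GC content, exon overlaps and shared 50-base words came from GENCODE M21 on GRCm38, not the build of the alignment, with GC for 98.477% of genes. Its exons cover more bases than the deposited gene lengths for Fdps (4208 and 1461), Tm7sf2 (4403 and 1479), Scap (7443 and 4288) and Fdft1 (4227 and 2862). The overlap shares therefore need not hold for the exons that were counted.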

Additional observations from a re-analysis of the deposited data

Results flagged for a closer look

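In 10 genes, among the 32 SREBP genes and the 4 further lists, the effect of AA differed between the media by the test of the difference itself (effect in DM minus effect in GM, log2, edgeR's quasi-likelihood test, adjusted over all 12230 tested genes, of which 2.67% were lower and 2.58% higher). In each of the 10 it was more negative in DM. Among the SREBP genes these were the sterol enzymes Tm7sf2 (-0.54), Idi1 (-0.46), Sc4mol (-0.46), Lss (-0.44) and Nsdhl (-0.26) and the elongase Elovl6 (-0.36). For Sc4mol, Elovl6 and Idi1 the fitted effect was above 0 in GM and below 0 in DM, although that of Idi1 in GM did not pass the test, and for Lss, Tm7sf2 and Nsdhl it was below 0 in both.

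Among the other genes of the pathways, Acat2, which makes acetoacetyl-CoA from acetyl-CoA, differed by -0.38, the citrate carrier Slc25a1 by -0.30, Aacs, which makes acetoacetyl-CoA from acetoacetate, by -0.28, and the acyl-CoA synthetase Acsl3 by -0.23. The adjusted p was 0.00126 for Acat2, 0.00741 for Slc25a1, 0.0321 for Aacs and 0.041 for Acsl3. The call for Aacs was lost on leaving out DM-AA 1, DM-AA 3, DM-PBS 1, DM-PBS 3, GM-AA 3, GM-PBS 2 or GM-PBS 3 (then adjusted p = 0.0523 to 0.115) and with DESeq2 (0.0842). That for Acsl3 was lost on leaving out DM-AA 1, DM-AA 2, DM-PBS 1, DM-PBS 2, DM-PBS 3, GM-AA 1, GM-AA 3, GM-PBS 1 or GM-PBS 3 (then adjusted p = 0.0528 to 0.111) and with DESeq2 (0.0514), and those for Acat2 and Slc25a1 held under every alternative run. No group of 3 libraries was tested for outlying values.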

How the results depend on the processing

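No member's call changed sign under any of the 8 alternatives or the 12 fits without 1 library. Calls held under every one of them for 27 of 29 members between media, 19 of 25 with AA in DM, 5 of 13 with AA in GM and 3 of 6 for the difference of effects. With DESeq2's Wald test 3 members were lower in the difference of effects (6 by edgeR), and with RPKM library sizes 1 member was lower between media (2 with TMM). The branch difference changed by -0.057 with AA in GM when Insig1 and Stard4 were counted as sterol genes (-0.018 without them), and by -0.090 with AA in DM when medians replaced means (-0.14). The cause was not tested. Replicate numbers did not pair the libraries (correlations of deviations -0.028 to 0.024). With the replicate block, 9 members fell with AA in GM and 24 in DM, and 5 were lower in the difference of effects. Under the block Nsdhl in GM (adjusted p = 0.059) and Idi1 and Nsdhl in the difference (adjusted p = 0.0524 each) did not pass, and Insig1 did (adjusted p = 0.0356). Libraries correlated best with their own number in 2 of 6, 0 of 6 and 0 of 6 cases. Without 1 library in turn, members that fell with AA numbered 4 to 10 in GM and 21 to 24 in DM, and those that rose 2 to 3 and 0 to 1. Between media 26 to 27 were higher and 1 to 2 lower, and in the difference of effects 3 to 7 were lower and 0 to 0 higher. The branch difference ranged from -0.052 to -0.00053 with AA in GM, from -0.15 to -0.12 with AA in DM, from 0.29 to 0.32 between media and from -0.14 to -0.089 for the difference of effects. Depth limits Acss2 and Tm7sf2 most, with 49 to 140 and 90 to 245 reads per library.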

Other observations

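Between media, in PBS, 27.0% of all tested genes were higher in DM and 27.4% lower. Of the 10 genes of sterol uptake, storage and efflux, 5 were higher in DM-PBS and 4 lower (median 0.055). The exporter Abcg1 was 1.83 ± 0.20 higher and Abca1 1.03 ± 0.20 higher, while Soat1, which esterifies cholesterol for storage, and Npc1 and Npc2, which move cholesterol out of lysosomes, fell by 0.60 ± 0.058, 0.55 ± 0.057 and 0.28 ± 0.044 (edgeR). Of the 13 tested further fatty acid genes, 7 were higher and 2 lower (median 0.16), with Lpin1 1.04 ± 0.086 and Acsl3 0.98 ± 0.050 higher, and Acsl1 and Hsd17b12 falling by 0.60 ± 0.12 and 0.45 ± 0.053. Of the 7 genes that cleave or degrade SREBP-pathway proteins, 3 were higher and 0 lower (median 0.024), all 3 by less than 0.3; 0 were lower also at an unadjusted p under 0.05 or with DESeq2. Soat1, Npc1, Npc2, Abcg1, Acsl1 and Hsd17b12 were named after their values were seen.

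Of the 25 members with a RefSeq promoter, 4 had no CCAAT in any window: Scap, Acaca, Elovl6 and Fads2. The Acaca window begins at base 84195188 of chromosome 11, inside the gene, which begins at base 84129672 in GENCODE. The sequence before that first start of Acaca was therefore not examined. Mvk had 5 boxes, at -173, -120, -67, -50 and -14 from its start, and Nsdhl had 4, at -109, -20, 8 and 34.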
